A study of Mus musculus with 18 samples.

Results

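The synaptonemal complex genes Syce1, Syce2, Syce3, Sycp1, Sycp2, Sycp3 and Tex12 were picked by gene symbol, which gave 7 of the 52636 genes measured. Their levels were read in mRNA-seq libraries of 3 tissues, liver, brain and testis, all from male C57BL/6 adults aged 8 weeks. Wild-type mice (WT) were compared with PCGF6 KO mice (KO), which are knockout for Pcgf6, and each of the 6 groups had 3 libraries, 18 altogether. In every tissue WT 1, WT 2 and WT 3 are the wild-type libraries and KO 4, KO 5 and KO 6 the knockout ones. How the allele was made is not given in the sources used here. The labels do not say whether each library came from a separate animal, so the p-values measure only the spread between these libraries, which may be technical. Levels are in FPKM, a read count divided by gene length and by the size of its library, so different genes can be set side by side.

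The synaptonemal complex is the protein zipper that joins paired homologous chromosomes in meiotic prophase. Lateral elements built with SYCP2 and SYCP3 lie along each chromosome axis, SYCP1 forms the transverse filaments that bridge them, and SYCE1, SYCE2, SYCE3 and TEX12 form the central element in the middle. The structure is made in germ cells, in the testis by spermatocytes, and somatic cells have no known use for it. PCGF6 belongs to PRC1.6, a polycomb repressive complex known for keeping germ cell genes silent in other cells. MGA with MAX, and E2F6 with its DP partner, are the subunits of PRC1.6 that bind DNA, at E-box, T-box and E2F sites.

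The promoters of the members differed in these sites. RefSeq windows of build GRCm38.p6, running from 250 bases before to 50 bases after a start site, were found for all 7 members, 9 windows in all. Both strands were searched for the E-box CACGTG, the E2F6 site TCCCGC and the T-box site AGGTGTGA, and no 2 matches overlapped in the windows of the members. Of 32851 windows of this length for all genes, 7.15% held the E-box, 20% the E2F6 site, 1.28% the T-box site, and 1.99% both the E-box and the E2F6 site. The windows printed here are those of Syce1, the member whose level differed most between genotypes, of 3 members that hold both sites, and of Mael, the gene whose levels ran closest to those of Syce1. They lie at chr7:140787805-140788104 (Syce1, minus strand), chr9:50561219-50561518 (Tex12, minus strand), chr3:102936051-102936350 (Sycp1, minus strand), chr10:88459337-88459636 (Sycp3, plus strand) and chr1:166238695-166238994 (Mael, minus strand). Each reads 5′ to 3′ on the strand of its gene, and capitals mark the matches on either strand, so that an E2F6 match on the opposite strand reads GCGGGA.
Syce1: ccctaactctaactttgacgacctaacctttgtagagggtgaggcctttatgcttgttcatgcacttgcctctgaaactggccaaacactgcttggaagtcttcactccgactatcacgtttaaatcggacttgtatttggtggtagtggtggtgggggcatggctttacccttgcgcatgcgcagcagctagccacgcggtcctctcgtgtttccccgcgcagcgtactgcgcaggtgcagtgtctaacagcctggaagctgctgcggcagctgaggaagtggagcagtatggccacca
Tex12: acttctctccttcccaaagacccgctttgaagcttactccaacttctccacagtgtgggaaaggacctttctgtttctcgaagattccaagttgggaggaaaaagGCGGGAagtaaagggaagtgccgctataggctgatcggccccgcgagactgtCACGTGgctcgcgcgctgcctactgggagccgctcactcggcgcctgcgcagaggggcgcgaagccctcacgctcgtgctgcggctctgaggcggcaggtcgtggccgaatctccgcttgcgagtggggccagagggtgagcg
Sycp1: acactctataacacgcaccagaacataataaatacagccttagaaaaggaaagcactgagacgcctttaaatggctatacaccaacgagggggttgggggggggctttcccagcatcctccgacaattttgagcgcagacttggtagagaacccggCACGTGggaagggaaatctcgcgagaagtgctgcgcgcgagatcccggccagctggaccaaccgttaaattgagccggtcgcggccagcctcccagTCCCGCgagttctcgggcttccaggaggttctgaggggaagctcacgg
Sycp3: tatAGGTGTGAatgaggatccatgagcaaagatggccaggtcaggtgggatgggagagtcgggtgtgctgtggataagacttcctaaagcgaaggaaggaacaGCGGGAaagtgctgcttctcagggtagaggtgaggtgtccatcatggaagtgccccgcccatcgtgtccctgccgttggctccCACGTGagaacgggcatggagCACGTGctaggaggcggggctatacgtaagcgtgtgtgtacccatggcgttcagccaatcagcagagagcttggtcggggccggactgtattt
Mael: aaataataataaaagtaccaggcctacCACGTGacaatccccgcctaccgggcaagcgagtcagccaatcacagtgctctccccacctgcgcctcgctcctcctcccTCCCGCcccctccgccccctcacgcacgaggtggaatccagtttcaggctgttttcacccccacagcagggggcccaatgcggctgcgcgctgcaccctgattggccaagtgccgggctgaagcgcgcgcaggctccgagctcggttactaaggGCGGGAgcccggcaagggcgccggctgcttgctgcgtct

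The Syce1 window held none of the 3 sites. Positions are counted from the start site, with a minus sign for bases before it. Tex12 held an E-box at -93 and an E2F6 site at -145. Sycp1 held an E-box at -94 and an E2F6 site at 3. Sycp3, the lateral element gene, held E-boxes at -64 and -43, an E2F6 site at -147 and a T-box site at -247. One Syce2 window held an E-box at -88 and E2F6 sites at -34 and 29, and the other an E2F6 site at -115. The Sycp2 window and both Syce3 windows held none. CpG dinucleotides stood at 0.625 of the number expected from base composition in the Syce1 window, against a median of 0.384 over all windows, 0.915 in Tex12, 0.874 in Sycp1 and 0.666 in Sycp3. These are letter matches in 300-base windows and no measure of binding.

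**Figure D1:**
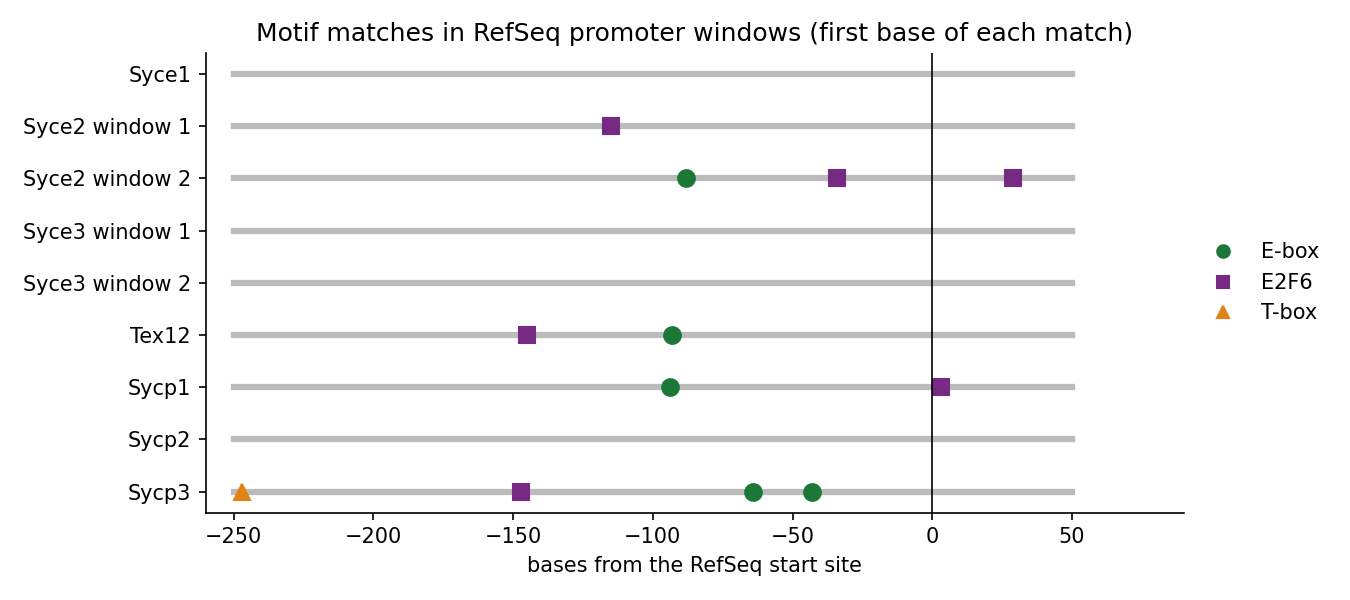
Motif matches in the 9 RefSeq promoter windows of the 7 genes; the x axis is distance in bases from the RefSeq start site (vertical line), each grey bar is a window, and symbols mark the first base of an E-box, E2F6 or T-box match. Syce1, Sycp2 and both Syce3 windows are empty, while Tex12, Sycp1, Sycp3 and one Syce2 window hold an E-box and an E2F6 site.

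The libraries held 18990130 to 23529098 reads counted to genes. Pcgf6 itself was lower in every KO than in every WT library of its tissue, at 39.0% of the WT mean in liver, 79.3% in brain and 47.6% in testis (limma adjusted p = 0.485 for liver, 1.00 for brain and 0.0638 for testis, so not called). The KO libraries thus kept reads of the gene, and which part is deleted is not given in the sources used here. Liver, brain and testis libraries carried the markers of their tissue: the summed FPKM of 10 hepatocyte markers was at least 71794 in each liver library, that of 10 neuronal markers at least 1016 in each brain library, and that of 12 spermatocyte markers at least 3925 in each testis library. Brain WT 3, KO 5 and KO 6 held albumin (Alb) transcripts, at 9.55, 4.24 and 5.47 FPKM. The other brain libraries had 0.0154 (WT 1), 0.0472 (WT 2) and 0.410 (KO 4). Liver KO 5 and KO 6 and brain WT 3 and KO 5 held the most spermatid transcripts outside the testis, and their values stand beside the results they touch.

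In WT testis all 7 genes were abundant, and Syce1 stood above the rest. Syce1 (ENSMUSG00000025480, chromosome 7, 140777229 to 140787852 of mm10, minus strand) measured 167, 168 and 175 FPKM in WT 1 to 3. SYCE1 is one of the central element proteins needed to start synapsis. Its 3 values were all above those of every other member. Syce3 (ENSMUSG00000078938, chromosome 15, 89390174 to 89410503, minus strand), which codes for a small central element protein, measured 77.6, 63.2 and 77.1 FPKM. Sycp3 (ENSMUSG00000020059, chromosome 10, 88459569 to 88473236, plus strand) measured 66.0, 65.5 and 79.8 FPKM, and Syce2 (ENSMUSG00000003824, chromosome 8, 84872111 to 84888221, plus strand), the partner of TEX12 in central element fibres, measured 73.7, 72.6 and 45.4. These 3 genes overlapped in level, so their order is not set by these libraries. Sycp1 (ENSMUSG00000027855, chromosome 3, 102818499 to 102936100, minus strand) measured 49.8, 40.8 and 46.6 FPKM. Sycp2 (ENSMUSG00000060445, chromosome 2, 178345293 to 178407685, minus strand) measured 46.6, 46.4 and 42.5 FPKM. Sycp1 and Sycp2 overlapped each other, and Syce2 reached down to them in WT 3. Tex12 (ENSMUSG00000032065, chromosome 9, 50556819 to 50561325, minus strand) was lowest, at 15.2, 14.9 and 20.3 FPKM, without overlap with any other member. Syce1 was 2.15 to 2.32 times the next member in WT testis and made up 33.7 to 36.0% of the summed FPKM of the 7 genes.

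**Figure D2:**
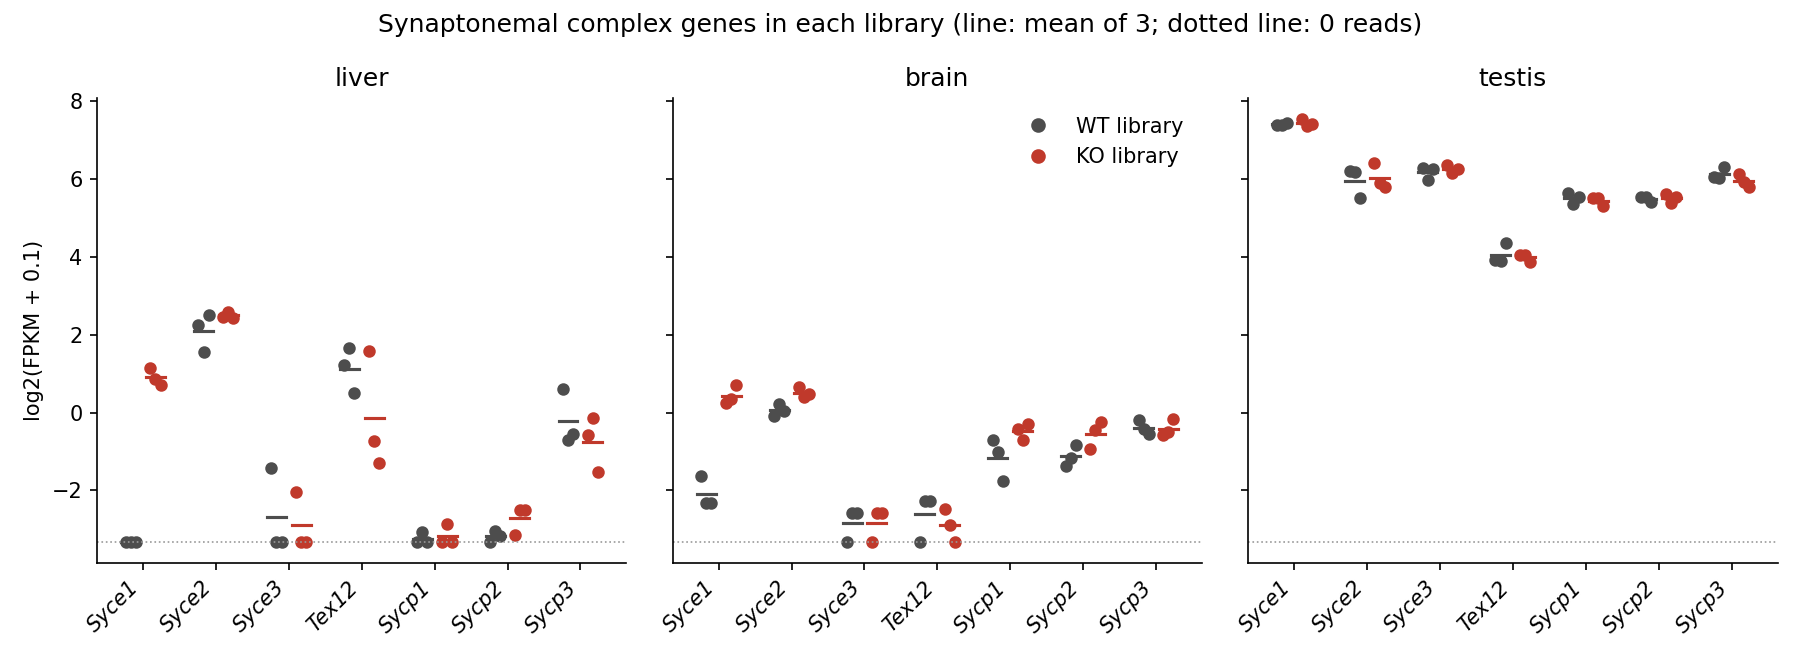
Level of each gene in each library as log2(FPKM + 0.1), by tissue; grey points are WT and red points KO libraries, short lines are means of 3 libraries, and the dotted line is the value at 0 reads. Syce1 sits on the dotted line in the 3 WT livers and above it in the 3 KO livers, and all 7 genes lie far higher in testis with WT and KO side by side.

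All 7 genes were higher in WT testis than in WT liver, where 57.8% of all tested genes were higher by the same call, an adjusted p under 0.05 in limma. They were all higher than in WT brain as well, where 50.1% of genes were. Both comparisons use the same WT testis libraries. In whole tissue, fewer cells of a type and less RNA per cell cannot be told apart. Against liver the differences in log2(FPKM + 0.1) were 10.73 ± 0.09 (SE) for Syce1, 8.87 ± 0.51 for Syce3, 8.75 ± 0.14 for Sycp1, 8.67 ± 0.13 for Sycp2, 6.34 ± 0.34 for Sycp3, 3.86 ± 0.29 for Syce2 and 2.93 ± 0.30 for Tex12. Syce2 and Tex12 thus had the smallest differences, and their WT liver levels were 6.84% and 13.2% of their WT testis levels. Against brain the differences ran from 5.91 ± 0.20 for Syce2 to 9.50 ± 0.19 for Syce1. For genes with few or no somatic reads these sizes depend on the 0.1 added, which the SE does not cover. Over the alternative fits the difference from liver ran from 7.42 to 14.05 for Syce1. It ran from 5.53 to 12.40 for Sycp1 and from 5.51 to 12.36 for Sycp2. Against liver, Syce1, Syce3, Sycp1 and Sycp2 passed the filter of 10 reads in 3 libraries through the testis libraries alone. Against brain, Syce1, Syce3 and Tex12 did. For these genes the filter required more reads in testis, so their calls are no test of the direction. Scaling by library totals moved the median over all genes from 1.06 to 1.62 against liver and from 0.417 to 0.325 against brain, and the all-gene calls against liver from 12572 higher and 6490 lower to 14540 and 4551, while all 7 members stayed higher.

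The somatic tissues held different members. In WT liver Syce2 measured 4.67, 2.86 and 5.59 FPKM and Tex12 2.23, 3.09 and 1.32, followed by Sycp3 at 1.43, 0.517 and 0.584. Neighbours in this order overlapped: Syce2 with Tex12, and Tex12 with Sycp3. Syce3, Sycp2 and Sycp1 had 2, 3 and 1 reads over the 3 WT livers, and Syce1 had none. In WT brain Syce2 led, at 0.842, 1.07 and 0.930 FPKM, above Sycp3 at 0.769, 0.641 and 0.579. Sycp1 at 0.517, 0.394 and 0.196 and Sycp2 at 0.290, 0.346 and 0.466 came next and overlapped each other. Syce1, at 0.222, 0.101 and 0.1003 FPKM, lay below Sycp2, overlapped Sycp1 through WT 1 and WT 3, and overlapped Tex12, which had 0, 3 and 3 reads. Syce3 had 0, 1 and 1 reads.

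Between WT brain and WT liver, Sycp1 (2.08 ± 0.27, SE) and Sycp2 (2.06 ± 0.17) were higher in brain, and Syce2 (-2.05 ± 0.25) and Tex12 (-3.75 ± 0.40) were lower, on the log2 scale with limma adjusted p of at most 0.000319. Of all tested genes 83.9% were called in this comparison. Sycp1 and Sycp2 passed the read filter only through brain and Tex12 only through liver, so these 3 had to differ, and Syce2 alone of the 4 had reads enough in both tissues. Sycp3 differed by -0.19 ± 0.35 (limma adjusted p = 0.636), and by 0.54 with library totals as the scale. That scale moved the median of all genes from 0.316 to 1.07, and the all-gene calls from 8826 higher and 6419 lower in brain to 11852 and 3855. The 4 called members kept their directions under it, with 2.33 for Sycp1, 2.33 for Sycp2, -1.25 for Syce2 and -3.12 for Tex12. Syce1 and Syce3 had too few reads for this test. With a filter of at least 1 CPM in 3 libraries only Syce2 and Sycp2 were tested.

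In testis none of the 7 genes differed between genotypes at an adjusted p under 0.05. Of the genes tested there, 0.00448% were called. Syce1 measured 187, 166 and 171 FPKM in KO 4 to 6, overlapping WT, with a log2 difference of 0.04 and a 95% interval from -0.17 to 0.24. Syce2 gave 85.3, 59.5 and 55.7 FPKM (interval -0.47 to 0.62), the widest of the 7, with WT 3 low and KO 4 high. Syce3 gave 81.7, 71.3 and 76.0 FPKM (-0.18 to 0.33) and Tex12 16.3, 16.5 and 14.6 (-0.40 to 0.25). All central element genes thus overlapped between genotypes. Sycp1 gave 45.5, 45.7 and 39.7 FPKM (-0.31 to 0.18), Sycp2 48.9, 42.2 and 46.7 (-0.19 to 0.23) and Sycp3 70.7, 61.2 and 55.4 (-0.47 to 0.12). The limma adjusted p ran from 0.871 to 0.958. No member had every KO library above every WT library, which 7.57% of tested genes had. At an unadjusted p under 0.05 none of the 7 passed, and limma called 1 gene of 22341 (922 at an unadjusted p under 0.05). With library totals as the scale, the differences of Syce1 (-0.05), Syce2 (-0.01), Syce3 (-0.00) and Sycp2 (-0.06) turned negative, and none was called.

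In liver Syce1 rose in the knockout, and it was the one member called of the 4 that could be tested. It had 0 reads in each of the 3 WT libraries, which allows up to 0.155, 0.134 and 0.138 FPKM in WT 1 to 3 (3 reads, counting error only). The KO libraries had 39, 39 and 29 reads, or 2.13, 1.72 and 1.53 FPKM, all above WT. This was at least 12.6-fold higher, taking 3 reads per WT library as the floor. On the log2(FPKM + 0.1) scale the difference was 4.23 ± 0.21 (SE, limma adjusted p = 0.00104), a size set in part by the 0.1 added. Of all genes tested in liver 0.0212% were called, which is 3 of 14124. Syce1 passed the read filter only through the KO libraries. The KO mean was 1.05% of the WT testis mean, or 0.616% with library totals as the scale.

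The other central element genes gave no call in liver. Syce2 measured 5.42, 5.90 and 5.34 FPKM in KO livers, with WT 2 low and the other values overlapping, and differed by 0.39 ± 0.24 in log2 (limma adjusted p = 1.00). Tex12 measured 2.90, 0.508 and 0.304 FPKM in KO 4 to 6: KO 4 lay within WT, and KO 5 and KO 6, with 8 and 4 reads, lay below all WT libraries. Its log2 difference was -1.28 ± 0.72 (limma adjusted p = 1.00). Without KO 5 and KO 6 it was 0.45. Syce3 had 1 read in all KO livers together, against 2 in WT, a read ratio of 0.530 (95% interval 0.00898 to 10.2).

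Transverse filament and lateral element genes stayed low in KO liver. Sycp1 had 2 reads against 1 in WT (ratio 2.12, interval 0.110 to 125). Sycp2 had 1, 7 and 6 reads in KO 4 to 6 against 0, 2 and 1 in WT, a ratio of 4.95 (interval 1.38 to 26.8, counting error only), with the 2 higher values in the libraries that held spermatid transcripts, whose part in this was not tested. Sycp3 measured 0.567, 0.816 and 0.244 FPKM, overlapping WT, and differed by -0.54 ± 0.47 in log2 (limma adjusted p = 1.00). Of all genes tested in liver 4.94% had every KO library above every WT library and 4.38% an unadjusted p under 0.05. None of Syce2, Sycp3 and Tex12 had either, and Syce1, which had both, passed the filter only through the KO libraries.

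In brain Syce1 was again the member with the largest difference. It measured 0.222, 0.101 and 0.1003 FPKM in WT, from 9, 4 and 4 reads, and 1.10, 1.18 and 1.53 in KO, from 40, 47 and 60 reads. Every KO library was above every WT library, and the KO mean was 8.99 times the WT mean. The log2 difference was 2.53 ± 0.23 (SE, limma adjusted p = 0.0142). Of all genes tested in brain 0.0837% were called, and Syce1 passed the read filter only through the KO libraries. The KO mean was 0.746% of the WT testis mean.

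The brain call of Syce1 was less stable than the liver call. It was kept under 7 alternatives and lost under 9, with limma adjusted p up to 0.319 and log2 differences from 0.99 to 3.16. It was lost without WT 2 (limma adjusted p = 0.0766), WT 3 (0.0617), KO 4 (0.0610), KO 5 (0.0908) or KO 6 (0.0739), and kept without WT 1 (0.00996). It was lost without the 3 libraries that held albumin transcripts (2.23, limma adjusted p = 0.319) and without WT 3 and KO 5, the 2 with the most spermatid transcripts (2.46, 0.189). In liver the call was kept under 14 alternatives and lost under 1, without KO 5 and KO 6, which leaves 1 KO library: there the difference was 4.48 (limma adjusted p = 0.130), with the lone library assumed to vary like the WT libraries.

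**Figure D3:**
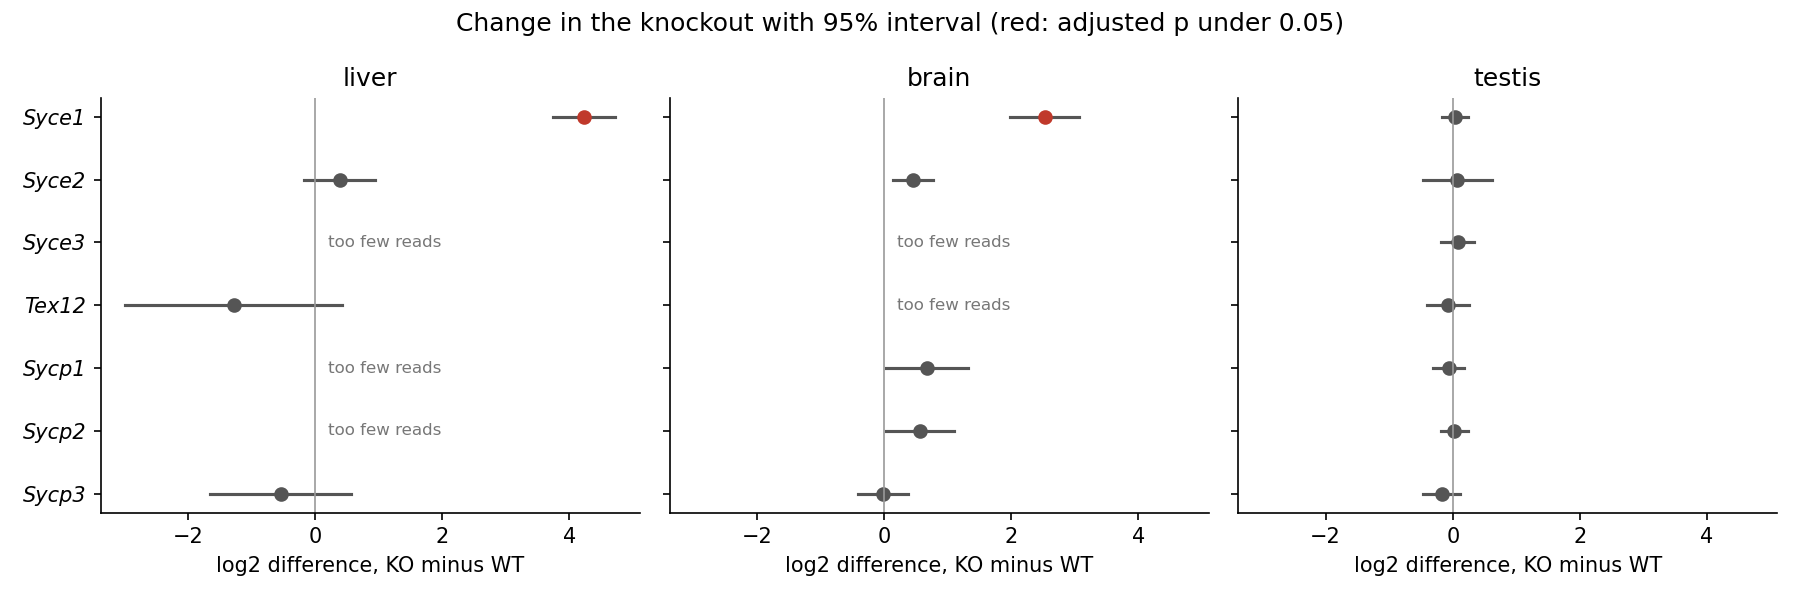
Log2 difference, KO minus WT, on log2(FPKM + 0.1) for each gene in liver, brain and testis, with the 95% interval of the limma fit; red points have an adjusted p under 0.05 and genes with too few reads are named as such. Only Syce1 is red, at 4.23 in liver and 2.53 in brain, and its testis value is 0.04 (-0.05 with library totals as the scale).

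The other members measured in brain had smaller differences, none with an adjusted p under 0.05. Syce2 gave 1.48, 1.21 and 1.30 FPKM in KO, all above WT, with a log2 difference of 0.46 ± 0.14 (limma adjusted p = 0.885). Sycp1 gave 0.642, 0.517 and 0.710 FPKM, where KO 5 and WT 1 met at 0.517, and a difference of 0.68 ± 0.28 (limma adjusted p = 1.00). Sycp2 gave 0.423, 0.634 and 0.741 FPKM, with KO 4 below WT 3, and 0.57 ± 0.23 (limma adjusted p = 1.00). Sycp3 overlapped between genotypes, at 0.570, 0.611 and 0.793 FPKM and -0.01 ± 0.17 (limma adjusted p = 1.00). Apart from Syce1, every KO library was above every WT library for 2 of these 4 members, Syce2 and Sycp1, against 4.99% of all tested genes. An unadjusted p under 0.05 was reached by 3 of the 4, against 4.46% of genes. Without WT 3, KO 5 and KO 6, the libraries with albumin transcripts, the differences were 0.60 for Syce2, 0.43 for Sycp1 and 0.33 for Sycp2. Syce3 had 2 reads in KO and 2 in WT, and Tex12 3 against 6 (ratio 0.520, interval 0.0841 to 2.43).

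Syce1 was then set against each other component within the same library. In KO liver Syce1 took 19.0 to 20.5% of the summed FPKM of the 7 genes, against 0 in WT. In KO brain it took 25.5 to 29.7%, against 3.71 to 8.41% in WT. In testis the share was 34.9 to 37.3% in KO and overlapped the WT share. Syce1 ranked 1 in every testis library, 1 or 2 in KO brain, and 2 or 3 in KO liver, where Syce2 remained above it in all 3 libraries.

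The log2 level of Syce1 minus that of the other gene was higher in every KO than in every WT library for all 6 other genes in liver and in brain. In liver the shift ran from 3.77 ± 0.35 (SE) against Sycp2 to 5.51 ± 0.83 against Tex12. In brain it ran from 1.85 ± 0.24 against Sycp1 to 2.81 ± 0.69 against Tex12, with 2.54 ± 0.13 against Sycp3 the most even. The 6 differences in a tissue share the Syce1 values, so they are not 6 separate results. Syce1 itself had every KO above every WT library, as had 4.94% of tested genes in liver and 4.99% in brain. The values against a gene without reads follow from Syce1 alone, and those against a gene with few reads nearly so. In testis the shifts lay between -0.04 and 0.21, and 5 of the 6 overlapped. The exception was Sycp3 (0.21 ± 0.10), where every KO difference, from 1.40 to 1.62, was above every WT difference, from 1.13 to 1.36. The exact two-sided permutation p was 0.1 for each separated pair, the smallest that 3 against 3 libraries can give, and 0.138 adjusted over the 18 pairs.

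**Figure D4:**
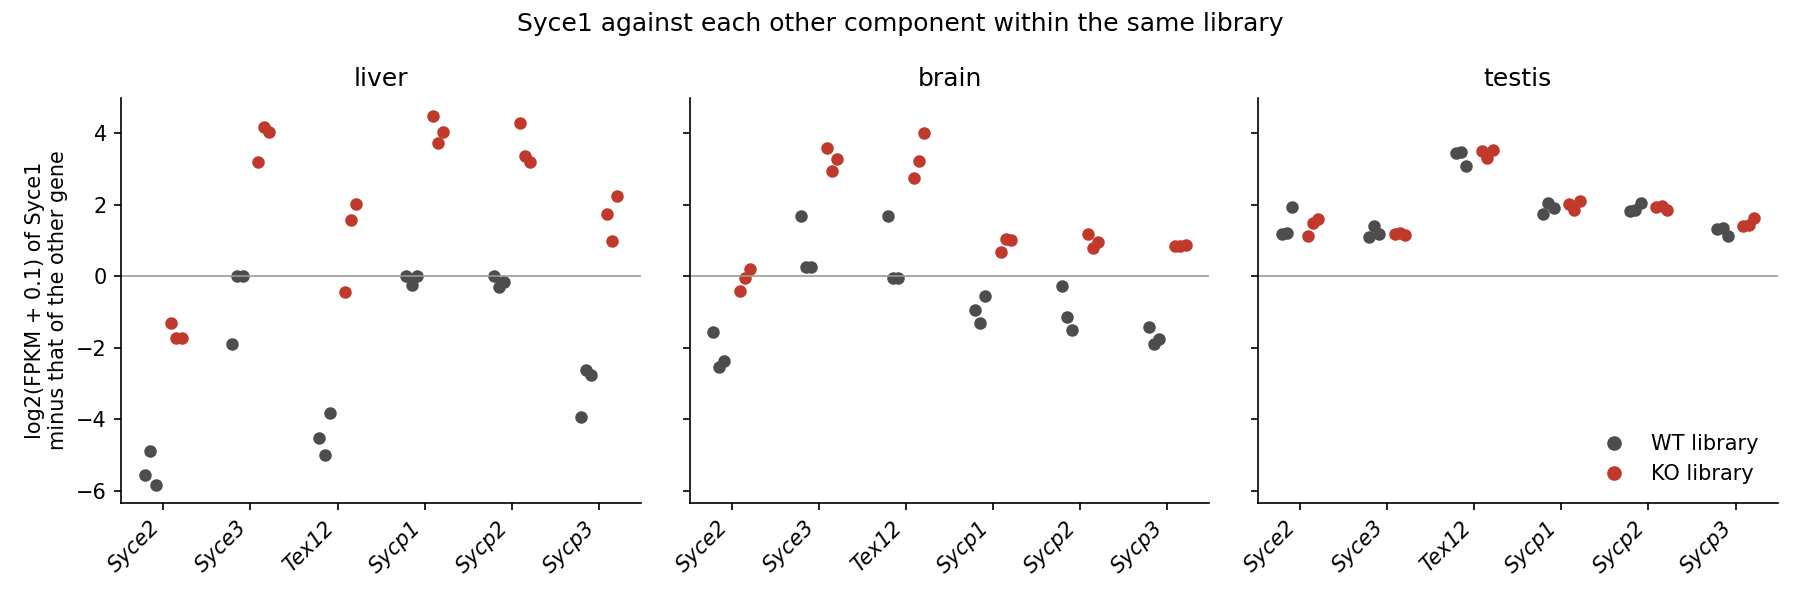
Log2(FPKM + 0.1) of Syce1 minus that of each other gene in the same library, by tissue, with WT in grey and KO in red; 0 means equal levels. All KO points lie above the WT points in liver and brain, and the testis points overlap except for Sycp3.

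On the log2 scale the change of Syce1 differed between testis and the somatic tissues. In liver and brain Syce1 passed the read filter only through the KO libraries, and the sizes depend on the 0.1 added. Its KO means of 1.79 FPKM in liver and 1.27 in brain were below the SD of the WT testis libraries, 4.59 FPKM. A rise of that many FPKM would therefore not be seen in testis. Testis minus liver, the difference of the KO effects was -4.20 ± 0.15 in log2 (SE, limma adjusted p = 5.90e-08), and testis minus brain it was -2.49 ± 0.24 (limma adjusted p = 0.000467). Each fit pools the spread of its 12 libraries. The SE of 0.15 is thus below the 0.21 of the liver change alone, and its p does not measure the liver spread. Of the genes tested, 0.0457% and 0.0626% were called in these comparisons. Brain minus liver, the difference was -1.70 ± 0.31 (limma adjusted p = 0.237), and -4.32 with 0.01 in place of 0.1 added to FPKM (limma adjusted p = 0.0117). Of the genes tested between brain and liver 0.0% were called, 0 of 12922, with 625 at an unadjusted p under 0.05 and 0 by limma voom on the recovered reads. Beside Syce1, the members with enough reads were Syce2, Sycp3 and Tex12 for testis minus liver, Syce2, Sycp1, Sycp2 and Sycp3 for testis minus brain, and Syce2 and Sycp3 for brain minus liver, and none of them was called. The rest were not tested.

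Other testis transcripts were read beside Syce1. The 10 spermatid markers include Gapdhs, which had reads in all liver and brain libraries, so the other 9 were summed. In liver these 9 genes had 4, 3 and 6 reads in WT and 2, 107 and 105 reads in KO 4 to 6. KO 4, with the fewest, had the highest Syce1 level of the 3. The spermatid sum was 0.0396% of its WT testis mean in KO 5 and 0.0412% in KO 6, where Syce1 stood at 1.01% and 0.902% of its own. In brain the 9 genes had 14, 6 and 113 reads in WT and 10, 226 and 87 in KO. WT 3 had more than KO 4 and KO 6, with a Syce1 level of 0.0590% of WT testis against 0.645% and 0.897%. The 12 spermatocyte markers, none of them a member, summed to 5.18 to 6.90 FPKM in WT and 5.42 to 8.08 in KO liver, and to 27.4 to 29.6 and 29.0 to 31.9 in brain. Of these 12 markers 3 had enough reads to be tested in liver and 5 in brain, and none of those was called. Among the untested ones in liver, Ybx2, a germ cell RNA-binding protein, had 2 reads in WT and 37 in KO, with every KO above every WT library. Ldhc, the lactate dehydrogenase of germ cells, had 3 and 33 reads, Pgk2, a glycolytic enzyme of germ cells, 0 and 8, and Piwil1, of the piRNA pathway, 0 and 7, all with overlap between genotypes. Adam2 had 14 and 25 reads, while Ccna1 (2 and 0) and Cdc25c (4 and 1) went the other way, also with overlap. Hspa2, a tested marker, had 220 reads in WT and 149 in KO liver, every KO below every WT library. In brain Ybx2 measured 2.28 ± 0.161 FPKM in WT and 3.29 ± 0.267 in KO, every KO above every WT library (limma adjusted p = 0.436). Hist1h1t, a testis histone H1, had 0 reads in liver and brain and was low in WT testis as well, at 1.59 FPKM. Aurkc, a meiotic kinase, had 0 reads in liver. The part of testis transcripts in the Syce1 levels was not tested.

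**Figure D5:**
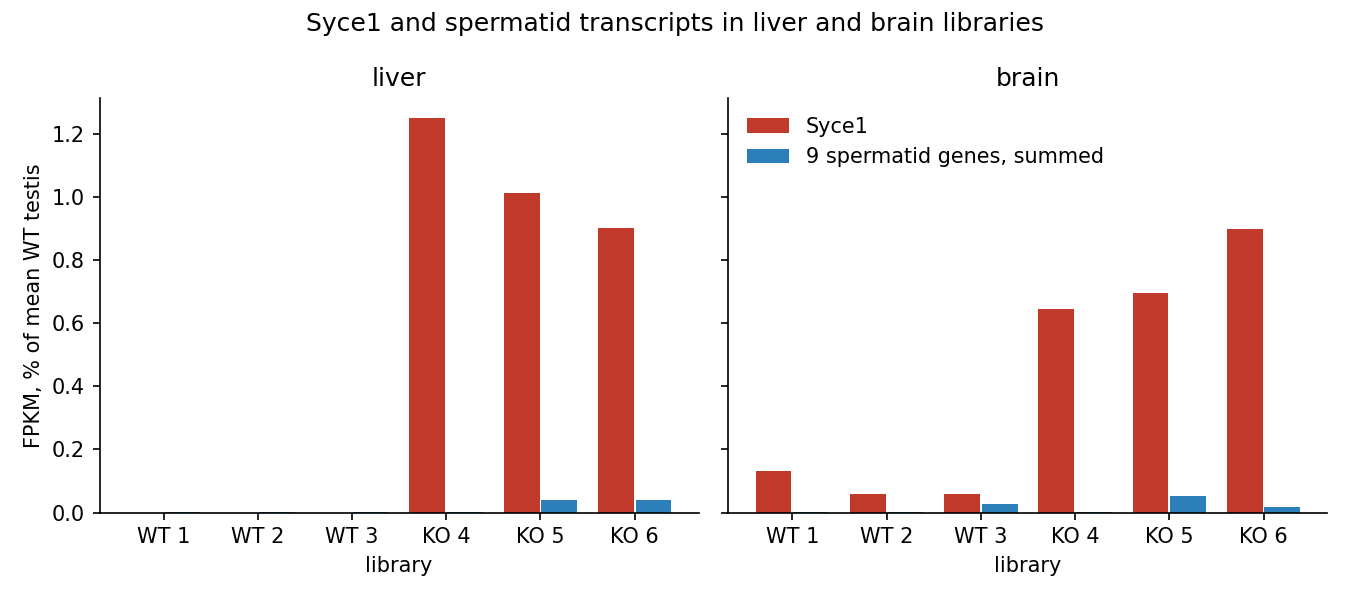
Syce1 (red) and the sum of 9 spermatid genes (blue) in each liver and brain library, as a percentage of the mean FPKM in WT testis; the bars start at 0. Syce1 lies between 0.645 and 1.25% in the KO libraries, while the spermatid sum stays at or below 0.0517%.

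Gene neighbours were checked because reads were counted by gene and no strand information is given. The exons of Syce1 overlap those of no other gene, and the pseudogene Gm29799 within its span had 0 reads in liver and brain. Cyp2e1, a cytochrome P450 of the liver, ends 2242 bases away on the opposite strand and measured 3522 ± 116 FPKM (SD, n = 3) in WT and 3926 ± 320 in KO liver. It did not pass the test (0.15 in log2, limma adjusted p = 1.00). In brain Cyp2e1 was at most 0.848 FPKM. Its part in the Syce1 levels was not tested. Zfp941, 19597 bases to the other side, measured 0.204 ± 0.103 and 0.174 ± 0.105 FPKM in WT and KO liver.

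Sycp3 shares 660 of its 1264 exon bases with Chpt1, a phospholipid synthesis gene on the opposite strand that measured 30.9 ± 6.85 FPKM in WT liver, so the somatic Sycp3 values are uncertain. In WT 1 to 3 liver Sycp3 measured 1.43, 0.517 and 0.584 FPKM, beside Chpt1 at 38.8, 27.0 and 26.8. In KO 4 to 6 Sycp3 measured 0.567, 0.816 and 0.244 FPKM, beside Chpt1 at 38.5, 34.3 and 25.4. Tex12 lies within the span of Il18, a cytokine gene on the opposite strand, without shared exon bases. In KO liver 4 to 6 Il18 measured 15.1, 11.0 and 9.06 FPKM, beside the Tex12 values of 2.90, 0.508 and 0.304. Syce2 overlaps the span of Gcdh on the opposite strand, an amino acid catabolism gene at 296 ± 9.07 FPKM in WT liver, also without shared exon bases. The part of these neighbours in the liver levels of Sycp3, Tex12 and Syce2 was not tested.

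Further proteins of the complex and of the chromosome axis gave no call in any tissue. This list of 9 genes had 1 tested in liver (Rec8), 5 in brain and all 9 in testis, with a median log2 difference of 0.17 in brain and 0.00 in testis, beside 0.01 and 0.03 over all genes. Rec8, the meiotic cohesin subunit, measured 2.37 ± 1.49 FPKM in WT and 5.23 ± 1.01 in KO brain (limma adjusted p = 1.00). Rad21l, another meiotic cohesin subunit, measured 0.220 ± 0.022 and 0.460 ± 0.168 (limma adjusted p = 0.965). In both, every KO library was above every WT library, which 4.99% of all genes tested in brain had. Of the 5 list genes tested in brain, 3 had an unadjusted limma p under 0.05, against 4.46% of all genes. 4930447C04Rik, the mouse gene of SIX6OS1, which binds SYCE1 in the central element, measured 1.31 ± 0.31 in WT and 0.880 ± 0.119 FPKM in KO brain (limma adjusted p = 1.00). In liver it had 0 reads in WT and 1 in KO, while Syce1 had 107 in KO. Stag3, also a meiotic cohesin subunit, measured 0.151 ± 0.124 and 0.169 ± 0.069 FPKM in brain.

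Genes of meiotic recombination and pairing gave no call among 11 tested in liver, 18 in brain and 28 in testis, with median log2 differences of 0.45, -0.04 and -0.05. The medians over all genes were 0.00, 0.01 and 0.03. An unadjusted limma p under 0.05 was reached by 3, 2 and 0 of them, against 4.38% of all genes in liver and 4.46% in brain. In WT liver 8 of the 28 had no reads, and such genes could be tested only through the KO libraries. Mnd1, a recombination cofactor, measured 6.74 ± 0.51 and 6.53 ± 0.93 FPKM in WT and KO liver, and Meiob, which binds single-stranded DNA in meiosis, 4.32 ± 0.89 and 6.26 ± 0.90. Of 6 regulators of meiotic entry, Rbm46, an RNA-binding protein of meiotic germ cells, rose in brain from 0.180 ± 0.035 to 0.890 ± 0.178 FPKM (1.81 in log2, limma adjusted p = 0.0224). Stra8, which drives entry into meiosis, had 0 reads in liver and brain. Of 17 germline genes reported as targets of PRC1.6, 5 were tested in liver and 11 in brain, and 2 rose in each: Mael, of the piRNA pathway, and Slc25a31, the ADP/ATP carrier of germ cells. The median log2 difference of those tested was 2.72 in liver and 0.33 in brain, beside 0.00 and 0.01 over all genes. The share of all tested genes called was 0.0212% in liver and 0.0837% in brain. In WT liver 8 of the 17, Mael among them, had no reads. Such genes could enter the test only through the KO libraries, so the filter favoured a positive liver median. None of the 17 was called in testis. This list was compiled with knowledge of such targets and is no independent evidence of a direction. Of the 14 PRC1.6 subunits, Pcgf6 included, limma called 0 in each tissue, and at an unadjusted p under 0.05 1 passed in each, which was Pcgf6.

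The levels of Syce1 over the 12 liver and brain libraries ran closest to those of Mael among 19209 genes, with a Pearson r of 0.971 on log2(FPKM + 0.1). Mael had 0 reads in WT liver and measured 15.0 ± 5.42 FPKM in KO liver, and 0.0912 ± 0.109 and 8.999 ± 2.51 in WT and KO brain. Tex11 (r = 0.948), Slc25a31 (0.930), Xlr4b (0.926) and Rbm46 (0.882) followed. Tex11, an X-linked meiotic gene, had 0 reads in WT and 40 in KO liver, and 12 and 40 in brain. None of the other synaptonemal complex genes was among these: r was 0.310 for Sycp2, 0.231 for Sycp1, 0.0790 for Syce2, -0.298 for Sycp3 and -0.330 for Tex12. The libraries share tissue, genotype and scale, so these values describe the likeness only. In the promoter windows, Mael held an E-box at -223 and E2F6 sites at -143 and 12, and Slc25a31 an E-box at -93 and an E2F6 site at 21. The Syce1 window held none of these letters.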

How the data were processed

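RNA of 3 tissues and 2 genotypes was measured in 18 libraries. Per the submitters' processing notes, build mm10, HISAT2 2.0.5, featureCounts 1.5.0-p3 and DESeq2 1.16.1 were used; their settings, and whether strand was used, are not given in the sources used here. The authors deposited FPKM per gene and library. FPKM times gene length gave whole multiples of 1 step per library within 0.01 reads, so reads were recovered from it; the implied library sizes equalled median-of-ratios factors over 14876 genes. Library totals over these sizes ran from 1.44 to 1.52 (liver), from 0.806 to 0.835 (brain) and from 0.823 to 0.969 (testis), which moves comparisons between tissues.

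Each comparison was fitted with limma 3.58.1 (R 4.3.3) with a mean-variance trend on log2(FPKM + 0.1), over every gene that reached 10 reads in 3 or more of its 6 libraries. The limma p-values were adjusted by the Benjamini-Hochberg method over all tested genes and called under 0.05. Fold changes on this scale understate the change of low genes. Differences of KO effects used the 12 libraries of both tissues and genes passing in both. Single values were compared by exact permutation. Bounds use 3 reads per library. Intervals are 95%: those of read ratios cover counting error only, and those of limma differences the spread between libraries. The fit was tested on simulated data. Replicate libraries differed beyond sampling noise (smallest chi-square per degree of freedom 3.86 over 18 pairs). Motifs were counted in RefSeq promoters of GRCm38.p6. Other steps ran in Python 3.11.15 with scipy 1.17.1, numpy 2.4.6 and pandas 2.3.3, and plots in matplotlib 3.10.9.

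Named are the 7 members, Pcgf6, called members of the lists and up to 4 others per list by mean FPKM, genes overlapping a member or next to Syce1, and the 5 genes most like Syce1. Other genes named were chosen after their values were seen. Of the list symbols 146 matched directly, 7 by a synonym and 1 did not match. The members and lists were chosen with earlier results of these data known. Same-numbered WT and KO libraries by file name (1 with 4, 2 with 5, 3 with 6) deviated together in liver (r from 0.162 to 0.354). In brain r was 0.0949, -0.0848 and 0.252 for these pairs, and in testis 0.0849, -0.0646 and 0.0902. By the title numbers all 6 pairs of liver with testis deviated together (r from 0.118 to 0.228). For liver with brain and brain with testis the 3 KO pairs did (0.144 to 0.236 and 0.138 to 0.242), while not every WT pair passed 0.1 (lowest 0.0547 and -0.00263). Alternatives were other pseudocounts, filters, scaling by totals, limma voom, a single fit, a replicate block and left-out libraries; 2 sets of libraries with spermatid transcripts were left out as an addition made after the values were seen.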

Additional observations from a re-analysis of the deposited data

Results flagged for a closer look

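On the log2 scale the KO effect on Syce1 differed between tissues by a test of the difference itself. Syce1 passed the read filter in liver and brain only through the KO libraries, so the test is no separate support for those calls. An equal rise in FPKM could not be seen at the testis level. Testis minus liver it was -4.20 in log2 (limma adjusted p = 5.90e-08), with Syce1 higher in 3 of 3 KO livers and overlapping between genotypes in testis. Testis minus brain it was -2.49 (limma adjusted p = 0.000467), with Syce1 higher in 3 of 3 KO brains. Each fit pools the spread of both its tissues, so these p-values do not measure the spread in liver or brain alone.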

How the results depend on the processing

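Syce1 was the only member called in liver, and the count of called members was 0 there without the 2 libraries with most spermatid transcripts. In brain the count of called members fell from 1 to 0 without the read filter (Syce1 adjusted p = 0.0758 by limma), with the replicate block by file-name numbers (Syce1 adjusted p = 0.0936), without the 3 libraries with liver transcripts, and without the 2 with most spermatid transcripts. Leaving out single brain libraries gave 0 to 1. The block changed no other call of a member; in liver the Syce1 adjusted p with the block was 0.0132. The difference of KO effects between brain and liver gave 1 called member with a pseudocount of 0.01. Between WT brain and WT liver, 2 members were called with the CPM filter, since fewer were tested. Leaving out single libraries moved the Syce1 difference between 4.11 and 4.33 in liver, 2.40 and 2.76 in brain and -0.01 and 0.07 in testis, where it was -0.05 with library totals. The pseudocount moved the liver difference far more, from 1.48 with 1 to 7.48 with 0.01, as WT liver had 0 reads. By limma voom the liver difference was 6.21. Without the read filter Syce1 was tested between WT brain and WT liver, at 1.23 (limma adjusted p = 0.00379). The testis minus liver and testis minus brain differences of Syce1 kept their call under 19 alternatives each. Over all genes, limma called 3 genes in liver, 15 in brain and 1 in testis, and 87, 27 and 36 in a single fit over 18 libraries. Leaving out single libraries gave 2 to 5, 8 to 12 and 0 to 3. The reported brain fit called 12 higher and 3 lower in KO. The replicate block called 9 in brain, 8 higher and 1 lower, and so did the fit without the 2 libraries with most spermatid transcripts. The fit without the 3 libraries with liver transcripts leaves 1 KO library, so its count is not given. In testis voom called 2 and the fit without read filter 0. For the differences of KO effects, the counts over alternatives ran from 0 to 4 for brain minus liver (0 in the reported fit) and from 3 to 11 for testis minus liver (6 in the reported fit). The leave-out sets of spermatid libraries were chosen after seeing the data. WT liver levels of Syce1 below the floor of 3 reads were not detectable at this depth.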
